A study of Mus musculus with 8 samples.

Results

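The LSm ring genes code for the Sm-like (LSm) proteins that close into rings around RNA, and they were taken by name as Lsm1, Lsm2, Lsm3, Lsm4, Lsm5, Lsm6, Lsm7, Lsm8, Lsm10 and Lsm11. Of these 10 genes, 9 were found among the 21553 gene identifiers with values, and Lsm3 (ENSMUSG00000034192) was not analysed here. Their mRNA was followed in 8 libraries of polyadenylated RNA from whole B6CBA F1 mouse embryos. Zygotes had received mRNA for Snrpb, for Snrpd2, for Snrpb and Snrpd2 together, or for mCherry, a fluorescent protein that served as the control. Embryos were collected 24 h after injection at the 2-cell stage or 5 h after injection at the 1-cell stage, so each stage had 3 libraries with an injected Sm mRNA and 1 with mCherry. Every group, the control included, had therefore been injected with an mRNA as a zygote, and no uninjected embryos entered these comparisons. Each library was 1 pool of 40 embryos drawn from 3 experiments, which leaves no replicate of any condition and hides the spread between embryos.

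LSm proteins are relatives of the Sm proteins that coat the spliceosomal small nuclear RNAs, and different rings share most of their subunits. The LSm1-7 ring, marked by Lsm1, sits in the cytoplasm on the 3′ ends of deadenylated mRNAs and promotes their decapping. The LSm2-8 ring, marked by Lsm8, binds the oligo(U) end of the nuclear U6 small nuclear RNA, while Lsm10 and Lsm11 replace a pair of Sm proteins in the ring of the U7 particle, which cuts the 3′ ends of histone pre-mRNAs. Early embryos draw on each of these activities as they degrade stored maternal mRNA, start their own transcription and splicing, and make histones for the first cell cycles.

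The members with the largest rise and the largest fall between the stages were Lsm8 and Lsm5, both on mouse chromosome 6, and the stretches upstream of their transcription starts are printed here so that the letters can be read beside their levels. They come from RefSeq (build GRCm38.p6), cover the 190 bases that end 61 bases before the annotated start, and run 5′ to 3′ on the gene's strand. Capitals mark the motifs searched that were present. In the window of Lsm8, chr6:18848385-18848574 on the plus strand, these are a GC box (GGGCGG, here 2 times as CCGCCC on the reverse strand) and the sequence GCGCATG, part of the site of nuclear respiratory factor 1. In the window of Lsm5, chr6:56704760-56704949 on the minus strand, they are an ETS core (CCGGAA, here as TTCCGG) and a CCAAT box (here as ATTGG).
Lsm8: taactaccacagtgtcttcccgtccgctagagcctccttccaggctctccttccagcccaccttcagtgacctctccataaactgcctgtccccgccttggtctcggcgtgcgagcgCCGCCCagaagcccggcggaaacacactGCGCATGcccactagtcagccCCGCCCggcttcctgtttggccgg
Lsm5: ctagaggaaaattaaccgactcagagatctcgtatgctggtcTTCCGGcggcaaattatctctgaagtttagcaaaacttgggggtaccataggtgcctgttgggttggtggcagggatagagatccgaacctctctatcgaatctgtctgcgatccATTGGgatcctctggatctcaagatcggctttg
The window of Lsm8 was 64.2% G or C, that of Lsm5 was 48.95%, and the median over all 32851 RefSeq windows of this length was 51.6%. On either strand, GGGCGG was found in 22.8% of all windows, CCAAT in 26.7%, CCGGAA in 7.40% and GCGCATG in 1.84%. RefSeq windows matched 8 of the 10 listed genes, all but Lsm1 and Lsm4, and gave 10 windows because some genes have several starts. Of these 10 windows, 4 held GGGCGG, 3 held CCAAT, 1 held CCGGAA and 2 held GCGCATG. None held TATAAA or TAATCC, which 8.73% and 4.96% of all windows held. The bases nearest the start were not searched, so a TATAAA there would be missed. The windows of Lsm7 overlap each other, so they are not separate cases. None of these motifs overlapped another in the printed windows, and a match describes the letters, not a bound site.

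Between 39492734 and 59979046 reads were counted per library. The labels of stage fitted the markers: 10 of 10 oocyte and zygote genes had reads in every library, with a summed level of 4260 to 5077 cRPKM in the 2-cell libraries and 6745 to 7501 cRPKM in the 1-cell libraries, and 6 of 7 markers of the 2-cell stage were higher in 2-cell embryos by the stage test described below. Zscan4d, one of them, had 61.4 ± 1.79 cRPKM in the 2-cell libraries and 8.84 ± 1.32 cRPKM in the 1-cell libraries (SD, n = 4), while Sp110, the exception, was lower, with 23.1 ± 1.24 against 64.7 ± 10.6 cRPKM. The summed level of the 7 was 801 to 1081 cRPKM in the 2-cell libraries, most of it from Gm5662, and 67.6 to 94.7 cRPKM in the 1-cell libraries, most of it from Sp110. cRPKM is the authors' value for reads per kilobase of a gene, scaled to the library total. The injected mRNAs were where the labels put them. In 1-cell embryos Snrpb stood at 43850 cRPKM where it was injected alone, 11913.5 with both mRNAs and 7.96 with mCherry. Snrpd2 stood at 17926, 9141.6 and 1.89 cRPKM in the same order. Markers of cumulus and granulosa cells, which surround the oocyte, summed to only 24.9 to 34.9 cRPKM over 16 genes in the 2-cell libraries and to 26.7 to 54.0 cRPKM in the 1-cell libraries.

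The 9 genes, whose products do not all join the same rings, covered a wide range of mRNA levels. In the 2-cell libraries the order by mean level per length was Lsm10 with 79.8 ± 7.34 cRPKM, Lsm2 with 67.7 ± 7.79, Lsm1 with 46.5 ± 3.57, Lsm8 with 15.3 ± 3.14, Lsm6 with 11.8 ± 0.241, Lsm5 with 10.9 ± 2.18, Lsm7 with 7.78 ± 1.52, Lsm11 with 5.97 ± 0.663 and Lsm4 with 5.40 ± 0.165 (SD, n = 4 differently injected libraries). In the 1-cell libraries it was Lsm10 with 78.5 ± 15.9 cRPKM, Lsm2 with 43.8 ± 2.31, Lsm5 with 24.8 ± 2.01, Lsm1 with 17.9 ± 2.42, Lsm6 with 11.04 ± 1.87, Lsm7 with 8.63 ± 2.84, Lsm11 with 6.51 ± 1.07, Lsm8 with 4.29 ± 0.493 and Lsm4 with 2.65 ± 0.381 (SD, n = 4). Among the 2-cell libraries the ranges of neighbours overlapped between Lsm10 and Lsm2, along the run Lsm8, Lsm6, Lsm5 and Lsm7, and between Lsm11 and Lsm4, so these places are not separated by the data. Among the 1-cell libraries they overlapped only along the run Lsm6, Lsm7 and Lsm11. Lsm10 stood above 95.8% of all genes with values in the 2-cell libraries and above 95% in the 1-cell libraries, and Lsm4, the lowest member, above 67.9% and 62.6%.

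Lsm7 needs a separate reading. Its 92 reads over the 8 libraries, 8 to 17 in each, became a level of several cRPKM because the deposited values count it over a length of only 29.0 bases, which is 2.57% of its longest coding transcript of 1129 bases. For the other 8 members the length in use was between 86.8% and 98.3% of the longest coding transcript, and for 13592 genes the median was 96.6%. The level of Lsm7 is thus known far less precisely than that of any other member, and it is left out of the counts of 2-fold differences between single libraries.

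**Figure D1:**
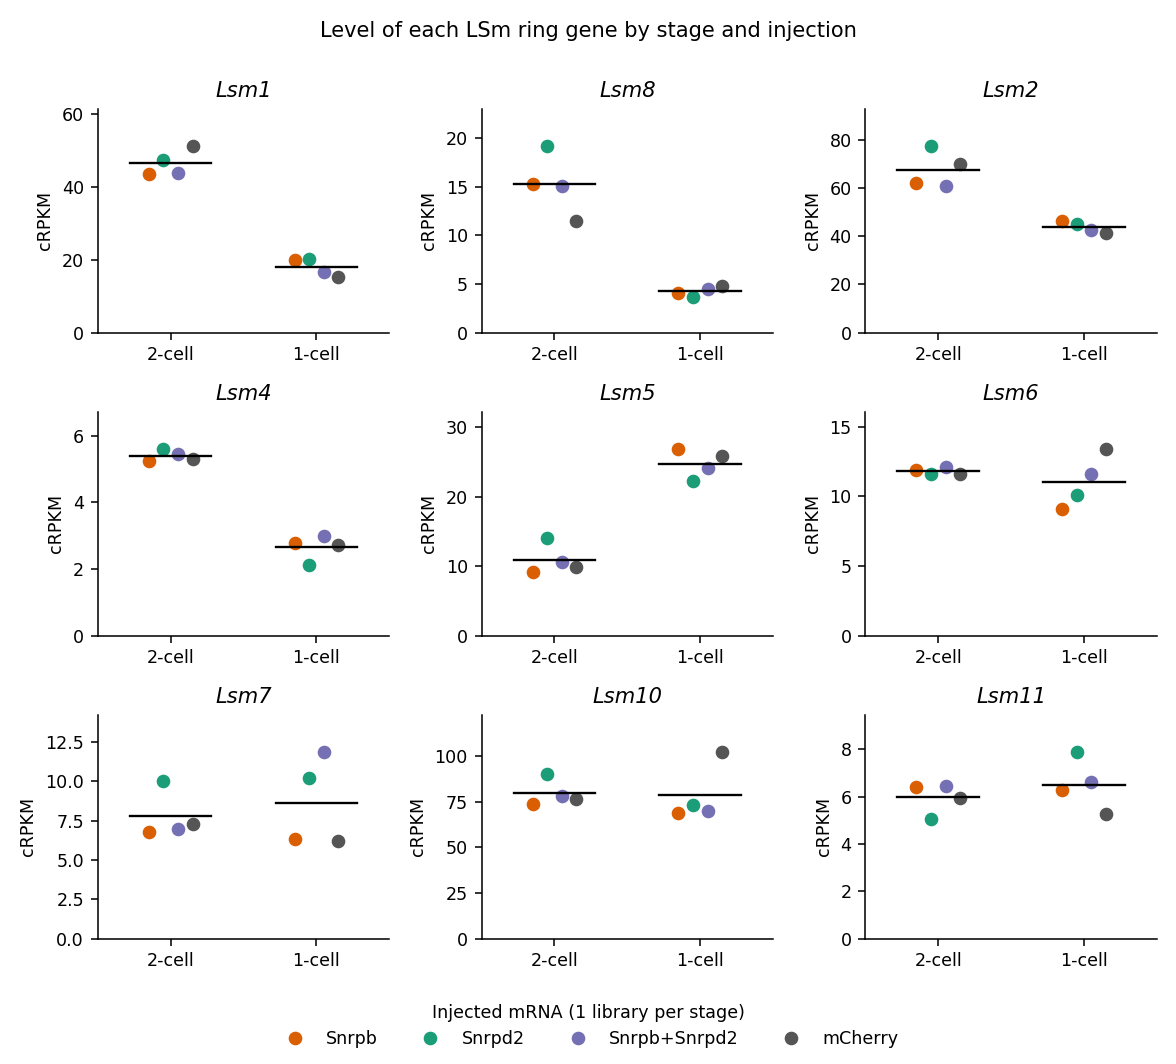
Level in cRPKM (vertical axes, each starting at 0) of the 9 measured LSm ring genes in the 4 2-cell libraries (left) and the 4 1-cell libraries (right), with 1 point per library coloured by injected mRNA and a line at the mean. Lsm1, Lsm8, Lsm2 and Lsm4 have every 2-cell point above every 1-cell point, and Lsm5 has every 2-cell point below.

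The comparison of stages asks how the measured level of ring subunit mRNA differed after the first division. The libraries hold polyadenylated RNA, so an altered amount of an mRNA cannot be told apart from an altered poly(A) tail. Of the 9 members, 4 were higher in 2-cell embryos (Lsm8, Lsm1, Lsm4 and Lsm2), 1 was lower (Lsm5), and 4 did not pass the test (Lsm6, Lsm7, Lsm10 and Lsm11), by edgeR's quasi-likelihood test with stage and injection as terms and Benjamini-Hochberg adjustment over 16264 genes. Among all genes tested, 38.1% were higher and 32% were lower in 2-cell embryos by the same rule, so calls were common at this transition. The median log2 fold change was -0.15 over the 9 members and 0.15 over all genes. The 4 injections stand in for replicates here, so the p-values rest on how far the stage difference varied from injection to injection. A whole-embryo library measures a share of its reads, and fewer cells with an mRNA cannot be told apart from less of it per cell.

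Lsm8, the subunit that marks the nuclear U6 ring, had the largest rise among the members. It stood at 15.35 cRPKM with Snrpb, 19.23 with Snrpd2, 15.13 with both and 11.54 with mCherry in 2-cell embryos, and at 4.11, 3.70, 4.53 and 4.83 cRPKM with the same injections in 1-cell embryos. The stages did not overlap, and the mCherry library was the lowest of the 2-cell libraries and the highest of the 1-cell libraries. Lsm8 was 2.94-fold higher in 2-cell embryos (log2 fold change 1.56 ± 0.20 SE, edgeR adjusted p = 5.62e-05), and the fold within a single injection ran from 2.08 with mCherry to 4.17 with Snrpd2.

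Lsm1, which marks the cytoplasmic decapping ring, rose as well. It stood at 43.65 cRPKM with Snrpb, 47.29 with Snrpd2, 43.92 with both and 51.27 with mCherry in 2-cell embryos, and at 19.82, 20.11, 16.65 and 15.16 cRPKM with the same injections in 1-cell embryos. Here the mCherry library was the highest of the 2-cell libraries and the lowest of the 1-cell libraries, the reverse of its place for Lsm8. Lsm1 was 2.18-fold higher in 2-cell embryos (log2 fold change 1.12 ± 0.14 SE, edgeR adjusted p = 4.94e-05), with folds of 1.78 to 2.94 within single injections.

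Among the subunits that both of these rings share, Lsm4 and Lsm2 were higher at the later stage. Lsm4, whose protein has a long arginine- and glycine-rich tail, stood at 5.24 cRPKM with Snrpb, 5.60 with Snrpd2, 5.46 with both and 5.29 with mCherry in 2-cell embryos, and at 2.78, 2.11, 3.0 and 2.72 cRPKM in 1-cell embryos. The 2-cell values lay within a narrow band above all 1-cell values, from 100 to 219 reads per library. Lsm4 was 1.71-fold higher in 2-cell embryos (log2 fold change 0.78 ± 0.22 SE, edgeR adjusted p = 0.00878).

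Lsm2, also shared by both rings, was the more abundant of these subunits at both stages. It stood at 62.10 cRPKM with Snrpb, 77.66 with Snrpd2, 60.88 with both and 69.98 with mCherry in 2-cell embryos, and at 46.30, 45.03, 42.45 and 41.25 cRPKM in 1-cell embryos. All 2-cell values lay above all 1-cell values. The test gave a 1.29-fold higher level in 2-cell embryos (log2 fold change 0.36 ± 0.12 SE, edgeR adjusted p = 0.0222), but this call was lost without the 1-cell mCherry library (log2 fold change 0.25, edgeR adjusted p = 0.144), without 5 of the other libraries in turn, and with no filter on low counts. With injection as a term, leaving out a library also takes the other library of that injection out of the stage comparison. These losses are thus not all separate checks. Over all alternatives the adjusted p of Lsm2 ran from 0.000424 to 0.144.

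Lsm5 was the only one of the 9 members that was lower in 2-cell embryos by this test. It stood at 9.20 cRPKM with Snrpb, 14.08 with Snrpd2, 10.58 with both and 9.82 with mCherry in 2-cell embryos, and at 26.86, 22.28, 24.08 and 25.82 cRPKM in 1-cell embryos. The stages did not overlap, and the Snrpd2 libraries lay closest to each other across the stages. Lsm5 was 2.74-fold lower in 2-cell embryos (log2 fold change -1.45 ± 0.19 SE, edgeR adjusted p = 5.61e-05), and between 1.97-fold and 3.61-fold lower within single injections. Lsm5 held the sixth place among the members in 2-cell embryos and the third in 1-cell embryos, and its protein joins the same rings as those of Lsm2 and Lsm4.

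The remaining members did not pass the test of stage. Lsm6, another shared subunit, stood at 11.85 cRPKM with Snrpb, 11.60 with Snrpd2, 12.12 with both and 11.63 with mCherry in 2-cell embryos, and at 9.11, 10.08, 11.60 and 13.39 cRPKM in 1-cell embryos. Its 2-cell values lay inside the spread of its 1-cell values (log2 fold change -0.15 ± 0.12 SE, edgeR adjusted p = 0.301, and 0.11 when scaled by library totals). Lsm7, also shared, stood at 6.80 cRPKM with Snrpb, 10.04 with Snrpd2, 6.98 with both and 7.30 with mCherry in 2-cell embryos, and at 6.32, 10.19, 11.85 and 6.18 cRPKM in 1-cell embryos. With so few reads its log2 fold change of -0.37 had an SE of 0.59 (edgeR adjusted p = 0.593), so a change of the size seen for Lsm4 was not detectable at this depth.

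The pair of U7 ring subunits likewise had overlapping stages. Lsm10 stood at 73.75 cRPKM with Snrpb, 90.41 with Snrpd2, 78.28 with both and 76.63 with mCherry in 2-cell embryos, and at 68.65, 73.27, 69.77 and 102.16 cRPKM in 1-cell embryos. The 1-cell mCherry library was the highest of the 8, and the other 7 lay between 68.65 and 90.41 cRPKM. The log2 fold change was -0.22 ± 0.13 SE (edgeR adjusted p = 0.158), -0.13 without the 1-cell mCherry library (edgeR adjusted p = 0.395) and 0.04 when scaled by library totals. Over all alternatives its adjusted p ran from 0.0518 to 0.808. On the TMM scale the change within single injections was below 0 for all 4, from -0.62 with mCherry to -0.015 with Snrpd2. Lsm11, the larger U7 subunit, which also contacts the histone cleavage machinery, stood at 6.43 cRPKM with Snrpb, 5.04 with Snrpd2, 6.46 with both and 5.95 with mCherry in 2-cell embryos, and at 6.27, 7.88, 6.60 and 5.29 cRPKM in 1-cell embryos. Its values overlapped between stages, with the extremes in the Snrpd2 libraries, and the change within single injections on the TMM scale was again below 0 for all 4 (log2 fold change -0.38 ± 0.16 SE, edgeR adjusted p = 0.0568). That value crossed the threshold in 4 alternatives, among them the fit without the 1-cell mCherry library (log2 fold change -0.54, edgeR adjusted p = 0.0176) and the fit without the 2-cell mCherry library (log2 fold change -0.50, edgeR adjusted p = 0.0263). With injection as a term, leaving out either mCherry library takes the mCherry pair out of the stage comparison. These fits are thus not separate checks. Over all alternatives the adjusted p of Lsm11 ran from 0.0176 to 0.546.

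The choice of scaling moves all of these values together. When the counts were scaled by library totals in place of TMM (edgeR's trimmed mean scaling), the median log2 fold change of all genes was 0.41 in place of 0.15. Seen without any test, the cRPKM values of 4 members lay higher in all 4 2-cell libraries than in all 4 1-cell libraries, as did those of 41.9% of 16918 genes with at least 10 reads in a library, and those of 1 member lay lower, as did those of 23.9% of these genes.

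**Figure D2:**
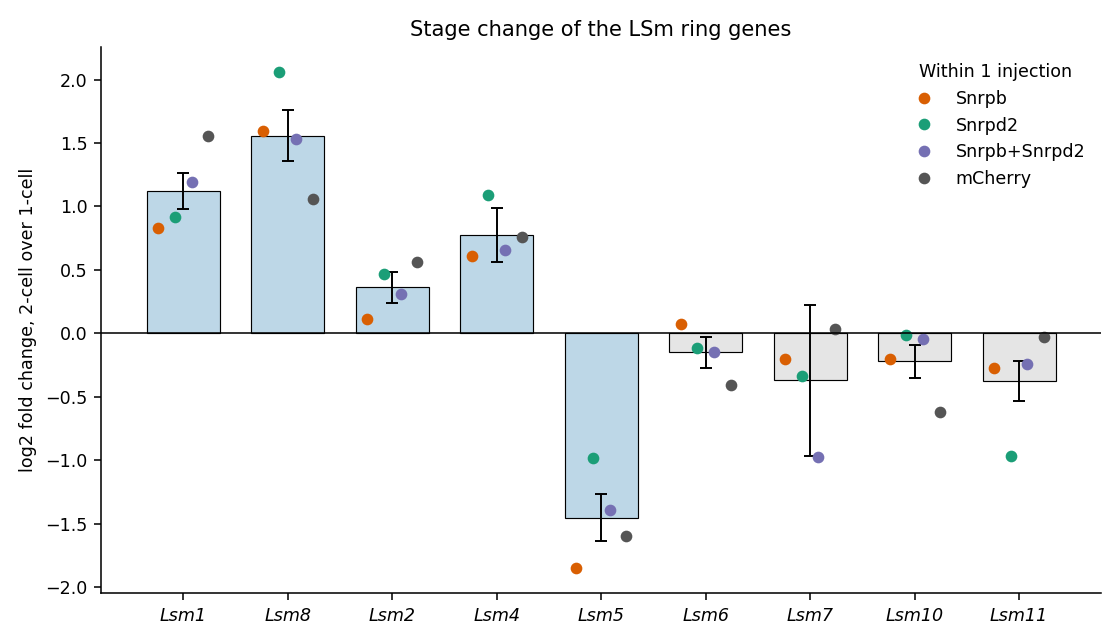
Log2 fold change of each LSm ring gene, 2-cell over 1-cell, from edgeR (bars with SE; blue for an adjusted p under 0.05, grey otherwise), with points for the change within each injection. On the TMM scale shown, Lsm1, Lsm8, Lsm2 and Lsm4 lie above 0 for all 4 injections, and Lsm5, Lsm10 and Lsm11 lie below 0 for all 4. In cRPKM, Lsm10 lay higher in 2-cell embryos with every Sm mRNA, and Lsm11 with Snrpb and with mCherry. The bars of Lsm6, Lsm7, Lsm10 and Lsm11 are grey.

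Because Lsm1 and Lsm8 take the same place in otherwise equal rings, the ratio of their levels sets the subunit of the decapping ring beside that of the U6 ring. Lsm1 was the more abundant mRNA in every library. The ratio of Lsm1 to Lsm8 was 2.84 with Snrpb, 2.46 with Snrpd2, 2.90 with both and 4.44 with mCherry in 2-cell embryos, and 4.82, 5.44, 3.68 and 3.14 in 1-cell embryos. With mCherry the ratio was thus above those of the Sm mRNA libraries in 2-cell embryos and below them in 1-cell embryos, and the stages overlapped (mean 3.16 ± 0.876 in 2-cell and 4.27 ± 1.05 in 1-cell embryos, SD, n = 4). No test of this ratio was made.

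The U7 partners were far from equal in mRNA. The ratio of Lsm10 to Lsm11 was 11.5 with Snrpb, 17.9 with Snrpd2, 12.1 with both and 12.9 with mCherry in 2-cell embryos, and 10.9 with Snrpb, 9.30 with Snrpd2, 10.6 with both and 19.3 with mCherry in 1-cell embryos. A single library stood out at each stage, and the stages overlapped. Lsm10 alone made up 30.7% to 32.6% of the summed level of the 9 members in 2-cell embryos and 36.1% to 47.1% in 1-cell embryos. The sum without Lsm10 (Lsm7 included) was 160.6 to 190.5 cRPKM in 2-cell embryos, against 114.6 to 121.6 cRPKM in 1-cell embryos, with no overlap. cRPKM is scaled by library totals, and on that scale the median log2 fold change of all genes was 0.413. By cRPKM, 41.9% of 16918 genes likewise lay higher in all 4 2-cell libraries than in all 4 1-cell libraries. Lsm1 held 16.8% to 20.6% of the sum of all 9 in 2-cell embryos, against 6.99% to 10.4% in 1-cell embryos.

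**Figure D3:**
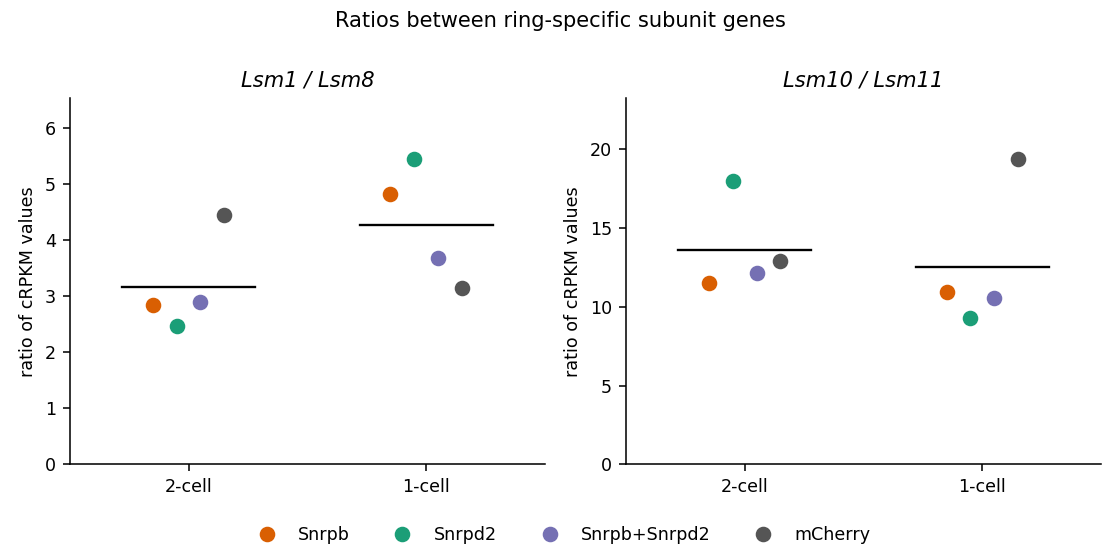
Ratio of the cRPKM values of Lsm1 to Lsm8 (left panel) and of Lsm10 to Lsm11 (right panel) in each library, with the 2-cell libraries left of the 1-cell libraries and a line at the mean of 4. For Lsm1 to Lsm8, the mCherry point is the highest of the 2-cell libraries at 4.44 and the lowest of the 1-cell libraries at 3.14.

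The study supplied zygotes with mRNA for Sm ring proteins, and the comparison with mCherry asks whether the LSm ring genes moved with it. None of the 9 members passed the test of Sm mRNA against mCherry, with the 3 Sm mRNA libraries of a stage as one group, at either stage or in the difference between stages. edgeR's quasi-likelihood test called 0% of 16867 genes in either direction in each of these comparisons. At an unadjusted p below 0.05 it had 0 members and 637 genes in 2-cell embryos, 2 members (Lsm6 and Lsm10) and 2618 genes in 1-cell embryos, and 2 members (Lsm1 and Lsm10) and 1648 genes for the difference. DESeq2 called no member either, but 0 genes in 2-cell embryos, 345 higher and 77 lower in 1-cell embryos, and 7 and 20 for the difference. limma on log2(cRPKM + 0.1) called 2 genes in 2-cell embryos, 1 in 1-cell embryos and 1 for the difference, and none of them was a member. Each stage has a single mCherry library, which these fits assume to vary like the others. The injected mRNAs themselves were not called, although Snrpb was 2444-fold higher (edgeR adjusted p = 0.248) and Snrpd2 4799-fold higher (edgeR adjusted p = 0.281) in the Sm mRNA group of 1-cell embryos, in which 1 of 3 libraries had received only the other mRNA. A lack of calls among the members therefore does not show that they were unchanged.

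Library by library, 8 members had at least 50 reads in either library of each pair (Lsm7 did not), and none of the 8 differed by 2-fold or more from the mCherry library in any of the 6 pairs. Among all genes with that many reads, 4.36%, 4.34% and 3.52% differed by 2-fold or more with Snrpb, Snrpd2 and both in 2-cell embryos, and 4.62%, 5.18% and 4.19% in 1-cell embryos. These shares also required the interval described next to exclude equal levels, which the count of members did not. The intervals given below are exact 95% intervals for the ratio of a pair of libraries after TMM scaling. They cover counting error only and say nothing of the spread between pools.

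Lsm10, the member with the most reads, was lower with every Sm mRNA than with mCherry in 1-cell embryos. Its ratio to the mCherry library was 0.955 with Snrpb (0.906 to 1.007), 1.12 with Snrpd2 (1.07 to 1.18) and 1.002 with both (0.951 to 1.06) in 2-cell embryos. In 1-cell embryos the ratios were 0.715 with Snrpb (0.685 to 0.746), 0.738 with Snrpd2 (0.707 to 0.770) and 0.663 with both (0.634 to 0.694). The edgeR log2 fold change was 0.03 ± 0.15 SE in 2-cell embryos (adjusted p = 1) and -0.50 ± 0.15 SE in 1-cell embryos (adjusted p = 0.179, unadjusted 0.00572), and the difference was 0.53 ± 0.21 SE (adjusted p = 0.465). The 1-cell value rests on the single mCherry library with 102.16 cRPKM. Cumulus and granulosa markers moved the other way in the same libraries, with sums of 39.4 cRPKM with Snrpb, 36.5 with Snrpd2 and 54.0 with both, against 26.7 with mCherry (14 to 16 of the 16 genes had reads), and their part in the result was not tested.

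Lsm6 had the same direction in 1-cell embryos. In 2-cell embryos its ratios lay between 0.947 and 1.02, and all 3 intervals held 1. In 1-cell embryos they were 0.724 with Snrpb (0.683 to 0.767), 0.775 with Snrpd2 (0.731 to 0.821) and 0.841 with both (0.795 to 0.891). The edgeR log2 fold change was -0.01 ± 0.16 SE in 2-cell embryos (adjusted p = 1) and -0.35 ± 0.16 SE in 1-cell embryos (adjusted p = 0.306).

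The opposite placing was seen for Lsm11 and Lsm1 in 1-cell embryos. Lsm11 had ratios to mCherry of 1.07 with Snrpb (1.002 to 1.15), 0.804 with Snrpd2 (0.748 to 0.864) and 1.07 with both (0.994 to 1.14) in 2-cell embryos. In 1-cell embryos they were 1.26 with Snrpb (1.19 to 1.34), 1.53 with Snrpd2 (1.45 to 1.63) and 1.21 with both (1.14 to 1.29). The Snrpd2 library was the lowest for Lsm11 at the 2-cell stage and the highest at the 1-cell stage, and neither edgeR value passed (adjusted p = 1 in 2-cell and 0.361 in 1-cell embryos).

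Lsm1 lay on different sides of mCherry at the 2 stages. Its ratio was 0.845 with Snrpb (0.811 to 0.881), 0.876 with Snrpd2 (0.842 to 0.911) and 0.840 with both (0.806 to 0.876) in 2-cell embryos, and 1.39 with Snrpb (1.31 to 1.47), 1.37 with Snrpd2 (1.29 to 1.45) and 1.07 with both (1.001 to 1.14) in 1-cell embryos. The difference of the Sm mRNA effect, 2-cell minus 1-cell, was -0.59 ± 0.24 SE on the log2 scale (edgeR adjusted p = 0.473, unadjusted 0.0319), so it did not pass the correction.

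Lsm8 was placed the other way round. Its ratio was 1.32 with Snrpb (1.15 to 1.52), 1.58 with Snrpd2 (1.39 to 1.80) and 1.29 with both (1.12 to 1.48) in 2-cell embryos, and 0.907 with Snrpb (0.740 to 1.11), 0.790 with Snrpd2 (0.636 to 0.979) and 0.913 with both (0.740 to 1.12) in 1-cell embryos. The difference of the effect between stages was 0.67 ± 0.35 SE on the log2 scale (edgeR adjusted p = 0.554).

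For the shared subunits Lsm2, Lsm4 and Lsm5 the 3 Sm mRNA libraries of a stage lay on both sides of mCherry after TMM scaling. For Lsm2 in 1-cell embryos this rests on a ratio of 0.9995 with both, and in cRPKM all 3 lay above mCherry. Lsm2 ranged from 0.853 to 1.05 of the mCherry library in 2-cell embryos and from 0.9995 to 1.19 in 1-cell embryos. Its 2-cell interval lay below 1 with Snrpb (0.830 to 0.934) and with both (0.8035 to 0.9055), and held 1 with Snrpd2. Its 1-cell interval lay above 1 with Snrpb (1.123 to 1.27) and with Snrpd2 (1.054 to 1.196), and held 1 with both. Lsm4 ranged from 0.983 to 1.01 in 2-cell embryos and from 0.797 to 1.09 in 1-cell embryos, and all 6 of its intervals held 1. Lsm5 ranged from 0.930 to 1.36 in 2-cell embryos and from 0.888 to 1.11 in 1-cell embryos, with the Snrpd2 library at the upper end at the 2-cell stage and at the lower end at the 1-cell stage. Its intervals excluded 1 only with Snrpd2, above it in 2-cell embryos (1.128 to 1.646) and below it in 1-cell embryos (0.7908 to 0.9967).

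**Figure D4:**
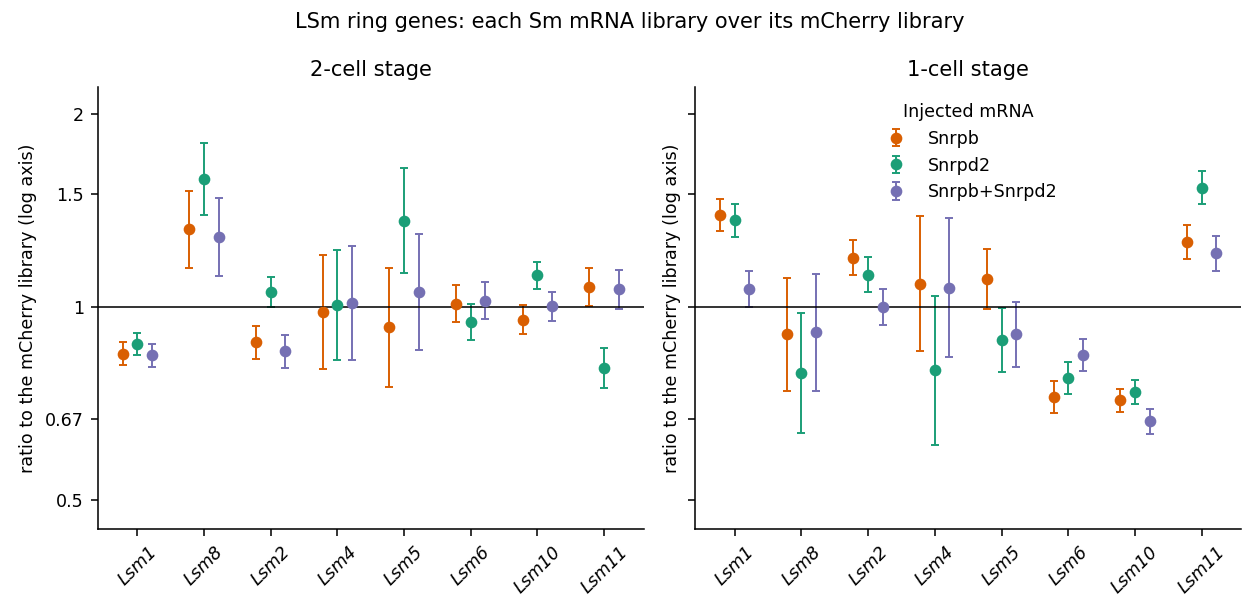
Ratio of each Sm mRNA library to the mCherry library of its stage (log axis) for the 8 LSm ring genes with enough reads, with the 2-cell stage left and the 1-cell stage right. Bars are exact 95% intervals for counting error only. No ratio reaches 2-fold. Lsm10 and Lsm6 lie below 1 for all 3 Sm mRNAs at the 1-cell stage, and Lsm8 lies above 1 for all 3 at the 2-cell stage.

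The members did not move as a block across the 8 libraries. On the log2 scale of TMM-scaled counts (CPM), Pearson's r was 0.95 between Lsm4 and Lsm8, 0.92 between Lsm1 and Lsm2 and 0.89 between Lsm1 and Lsm8, and it was -0.93 between Lsm1 and Lsm5, whose products sit in the same ring. Between the U7 partners Lsm10 and Lsm11 it was -0.06. These are descriptions over 8 libraries that fall into 2 stages, so a pair that differs between the stages has a high r for that reason alone. By the same measure over 16263 genes, Dexi (r = 0.996), Ptges and Tfeb (both 0.995) were most like Lsm8. Popdc2 (0.998), Ipo4 (0.997) and Rnf135 (0.997) were most like Lsm5. For Lsm10 the nearest genes were B3gntl1 (0.965), Zfp296 (0.964) and Mettl23 (0.956), and no gene exceeded 0.99, whereas 41 genes did for Lsm8 and 91 for Lsm5.

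The proteins that work with the rings were compared between the stages as lists, with the calls of the same edgeR test and the same shares of all genes (38.1% higher, 32% lower) beside them. Of the 12 decapping and decay partners of the LSm1-7 ring, 3 were higher, 7 were lower and 2 were not called (median log2 fold change -1.17), where Lsm1 was higher. The largest rise among those called was that of Edc3, an enhancer of decapping, with 0.95 ± 0.234 cRPKM in 2-cell embryos and 0.453 ± 0.0789 in 1-cell embryos (SD, n = 4; log2 fold change 0.80, edgeR adjusted p = 0.00631). The largest fall was that of Edc4, the scaffold of the decapping complex, with 14.1 ± 1.71 cRPKM in 2-cell embryos and 141.2 ± 10.9 in 1-cell embryos (log2 fold change -3.59, edgeR adjusted p = 1.67e-08).

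Of the 23 U6 biogenesis and tri-snRNP partners of the LSm2-8 ring, 3 were higher, 18 were lower and 2 were not called (median log2 fold change -1.28), where Lsm8 was higher. Usb1, the exonuclease that trims the U6 tail, had 11.9 ± 1.76 cRPKM in 2-cell embryos and 0.657 ± 0.312 in 1-cell embryos (log2 fold change 4.01, edgeR adjusted p = 1.69e-06). Ssb, the La protein that holds the new U6 tail before the ring does, had 34.4 ± 6.26 cRPKM in 2-cell embryos and 398.1 ± 40.4 in 1-cell embryos (log2 fold change -3.80, edgeR adjusted p = 1.67e-08).

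Of the 15 U7 and histone 3′ end partners of Lsm10 and Lsm11, 3 were higher, 8 were lower and 4 were not called (median log2 fold change -0.60), where neither Lsm10 nor Lsm11 was called. Casp8ap2 (FLASH), which binds LSM11, had 43.2 ± 2.02 cRPKM in 2-cell embryos and 13.5 ± 3.25 in 1-cell embryos (log2 fold change 1.45, edgeR adjusted p = 1.32e-05). Cpsf3, the endonuclease that makes the cut, had 4.53 ± 0.0512 cRPKM in 2-cell embryos and 31.2 ± 4.61 in 1-cell embryos (log2 fold change -3.03, edgeR adjusted p = 3.32e-08).

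Of the 13 factors that assemble Sm-type rings, 7 were higher, 3 were lower and 3 were not called (median log2 fold change 0.55). Wdr77, the partner of the methyltransferase PRMT5, had 16.6 ± 4.27 cRPKM in 2-cell embryos and 0.0975 ± 0.0695 in 1-cell embryos (log2 fold change 7.19, edgeR adjusted p = 2.32e-08), and Smn1, the core of the SMN complex, had 78.5 ± 9.43 cRPKM in 2-cell embryos and 232.7 ± 15.3 in 1-cell embryos (log2 fold change -1.83, edgeR adjusted p = 7.55e-07). Among the 7 Sm ring genes, 2 were higher, 2 were lower and 3 were not called, and those 3 were Snrpe and the injected Snrpb and Snrpd2, whose reads include the injected mRNA. Snrpg was the largest rise with 570.4 ± 108.2 cRPKM in 2-cell embryos and 82.2 ± 34.4 in 1-cell embryos (log2 fold change 2.60, edgeR adjusted p = 4.23e-06), and Snrpd3 the largest fall with 45.5 ± 9.61 against 129.4 ± 8.87 cRPKM (log2 fold change -1.79, edgeR adjusted p = 9.31e-07). Of 7 other genes with an LSm fold, 2 were higher, 2 were lower and 3 were not called (median -0.04), with Edc3 again the largest rise and Lsm14b, an mRNA-binding protein of oocytes, the largest fall (38.9 ± 5.57 cRPKM in 2-cell and 83.7 ± 1.54 in 1-cell embryos, log2 fold change -1.37, edgeR adjusted p = 2.62e-06). Edc3, Lsm14b and a few others belong to more than 1 list. No gene of any of these lists was called between Sm mRNA and mCherry by edgeR, the injected Snrpb and Snrpd2 included.

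**Figure D5:**
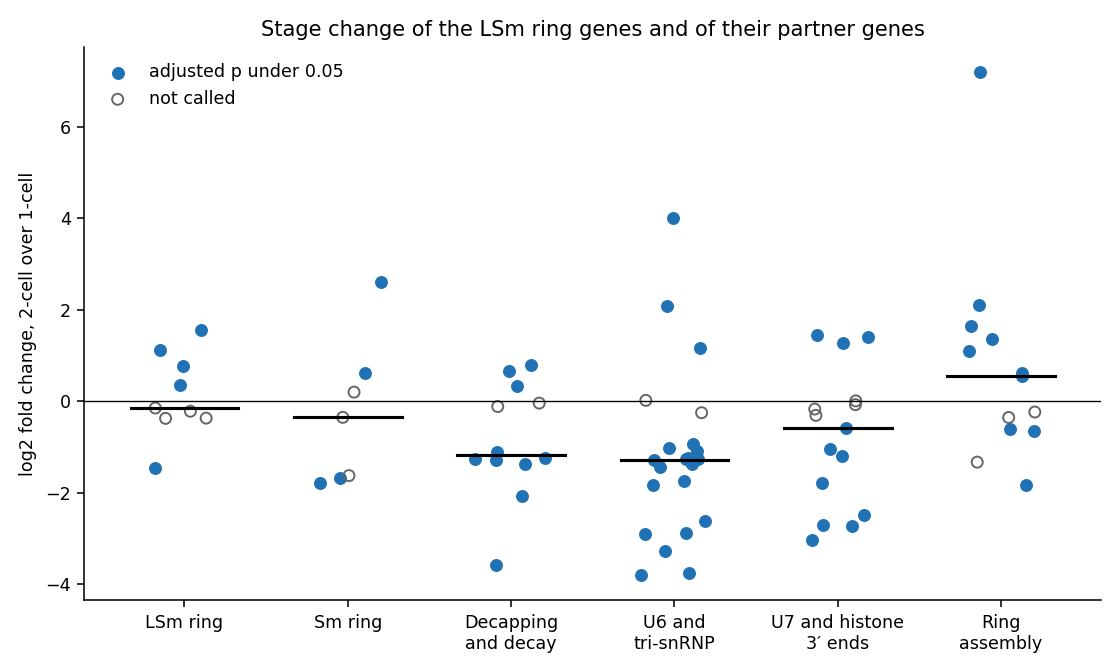
Log2 fold change, 2-cell over 1-cell, from edgeR for the 9 LSm ring genes and for 5 lists of genes that work with them or with the Sm ring, with 1 point per gene (filled for an adjusted p under 0.05) and a line at each list's median (the Sm ring includes the injected Snrpb and Snrpd2, and its line lies at Snrpd2). Most U6 and tri-snRNP genes lie below 0, and the LSm ring genes lie between -1.45 for Lsm5 and 1.56 for Lsm8.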

How the data were processed

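RNA of each pool was prepared with the RNeasy Micro kit and sequenced on a HiSeq2500 after the SMARTer Stranded kit, per the labels' protocols. The submitters' processing notes name the build mm9. The aligner, the counting rules and whether strand was used were not given in the sources used here. Reads of overlapping or near-identical genes are therefore uncertain. Each deposited table gave, per Ensembl gene, a whole-number read count and an RPKM value that the authors call cRPKM. For 2662 genes above 2000 reads, cRPKM equalled the deposited count over a fixed length and the library total within 0.206%. Of 22667 identifiers, 1114 held no value, and 20451 with values had a GENCODE vM21 symbol. Counts were tested with edgeR 4.0.16 (TMM, filterByExpr with a minimum count of 10, quasi-likelihood, Benjamini-Hochberg at 0.05), with stage and injection as terms (3 residual degrees of freedom), or with 4 groups of stage by Sm mRNA or mCherry (4 residual degrees of freedom). A floor of 3 reads was 0.0500 to 0.0760 CPM. The intervals cover counting error only and treat each read as an independent draw. PCR reads are not independent molecules, so the intervals may be too narrow even for that error. Each SE of an edgeR log2 fold change is its absolute size over the square root of the test's F value. It was not taken from the fit itself. Correlations used log2(CPM + 0.5). Alternatives were DESeq2 1.42.0, limma 3.58.1 on log2(cRPKM + 0.1 or + 1), other scalings, no filter, and each library left out. The mCherry libraries were left out in the stage fit only. Promoter windows were read from RefSeq, GRCm38.p6, a build the counts do not use.

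All members are named; from each other list, the largest rise and fall among called genes, and for the most abundant member and the largest called rise and fall the 3 most correlated genes. The members and lists were chosen with earlier results of these data known.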

Additional observations from a re-analysis of the deposited data

Results flagged for a closer look

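In 1-cell embryos Lsm10 stood at 102.2 cRPKM with mCherry, far above the other 3 libraries of that stage, which lay between 68.65 and 73.27 cRPKM. The gap exceeded Dixon's 95% critical value for groups of 4. The same library was far from the others for the ratio of Lsm10 to Lsm11, at 19.3, against 9.30 to 10.9 with the Sm mRNAs. In 2-cell embryos Lsm7 stood at 10.04 cRPKM with Snrpd2, above 6.80 to 7.30 cRPKM in the other 3 libraries, from 13 reads against 8 or 9. Chance alone gives such a gap in about 1 in 20 groups, and 22 groups were examined. The cause was not tested.

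The ratio of Lsm1 to Lsm8 in the 3 Sm mRNA libraries, divided by that in the mCherry library of the stage, averaged 0.616 in 2-cell embryos and 1.48 in 1-cell embryos. All 3 libraries lay below mCherry at the later stage (0.640, 0.554 and 0.653) and above it at the earlier stage (1.54, 1.73 and 1.17). The difference between the stages was not tested for this ratio, and each side rests on 1 mCherry library. For Lsm1 and Lsm8 taken singly the difference between stages did not pass the edgeR test (adjusted p of 0.473 and 0.554).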

How the results depend on the processing

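The calls of stage for Lsm1, Lsm4, Lsm5 and Lsm8 held in all 16 alternatives. No member was called for Sm mRNA against mCherry in any of the 12 run for that comparison, none of which left out an mCherry library. The stage call of Lsm2 was lost with no filter (log2 fold change 0.31, edgeR adjusted p = 0.0534) and in 6 of the 8 fits that left out a library. Its value over those 8 ranged from 0.253 to 0.439. Because injection is a term, each of these fits also takes the other library of that injection out of the stage comparison. The 8 fits therefore hold fewer separate checks than their number. Lsm11 passed the threshold with no filter (-0.43, adjusted p = 0.0316), with stage as the only term (-0.41, adjusted p = 0.0191) and without either mCherry library; its values without single libraries ranged from -0.537 to -0.23. Uncalled values near 0 changed sign. Between stages these were Lsm6 (0.11 with library totals, 0.109 and 0.10 with limma at pseudocounts of 0.1 and 1) and Lsm10 (0.04, 0.039 and 0.039). For Sm mRNA against mCherry in 2-cell embryos they were Lsm4 (0.015 with DESeq2 size factors and with DESeq2, 0.039 with library totals, 0.001 with no filter, 0.037 and 0.032 with limma), Lsm6 (0.004, 0.004, 0.028, 0.027 and 0.025 in the same settings but no filter) and Lsm11 (0.007 with library totals). Without single libraries, the uncalled Sm mRNA values in 2-cell embryos ranged from -0.012 to 0.014 for Lsm4, -0.011 to 0.27 for Lsm5, -0.035 to 0.023 for Lsm6, -0.101 to 0.164 for Lsm7, -0.032 to 0.08 for Lsm10 and -0.104 to 0.096 for Lsm11. In 1-cell embryos they ranged from -0.093 to 0.136 for Lsm4 and -0.151 to 0.036 for Lsm5, and the difference between stages from -0.121 to 0.089 for Lsm4. The cause of these shifts was not tested. For all genes, the 0 calls for Sm mRNA by edgeR stand beside 345 higher and 77 lower genes by DESeq2 in 1-cell embryos. The stage fit already sets the stages side by side within each injection; with stage as the only term, 6 members were called in place of 5. Depth limits Lsm7 most, with 8 to 17 reads per library.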
